A study of Mus musculus with 117 samples.

Results

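A set of 10 genes of the major histocompatibility complex (MHC) and its antigen presentation pathway was followed through chromatin state maps of mouse hepatocytes, which make up most of the liver. The genes were H2-K1, H2-D1, H2-Q10, H2-Q1, H2-Aa, H2-Ab1, H2-Eb1, Cd74, B2m and Tap1. The set lists them by name, and all 10 were found among the 20560 autosomal protein-coding genes of the annotation. Each gene was read with 2 kb on each side in bins of 200 bp, from 43 bins at H2-D1 and H2-Q10 to 75 at H2-Eb1. The 10 spans held 546 bins, and no bin belonged to more than 1 of these genes. The mice were 12-week-old females of inbred strains, and the labels name no treatment and no engineered allele. The strains were the reference strain C57BL/6J, A/J, DBA/2J, 129S1/SvImJ, NZO/HlLtJ, NOD/ShiLtJ and 3 wild-derived strains, WSB/EiJ, CAST/EiJ and PWK/PhJ. The labels list 117 libraries, 13 for each strain, with chromatin immunoprecipitation of the histone marks H3K4me1, H3K4me3, H3K27ac and H3K27me3 in 3 mice of each strain and 1 input library without antibody. The mice of a strain were combined by the authors in 1 deposited segmentation, in which every bin carries the number of 1 of 14 states, so a strain gave 1 value and all SDs below are over the 9 strains. The sequencing depth behind the segmentations is unknown, and no source used here says which marks make up a state, so a state number serves only as a name.

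MHC molecules display peptides at the cell surface to T cells. Class I molecules are made of a heavy chain (H2-K1, H2-D1 and the H2-Q genes) and beta-2 microglobulin (B2m), are loaded with peptides that the Tap transporter carries into the endoplasmic reticulum, and are made by nearly every nucleated cell, hepatocytes included. Class II molecules pair an alpha chain (H2-Aa) with a beta chain (H2-Ab1), or the E alpha chain with H2-Eb1, are guarded by the invariant chain (Cd74), and belong mainly to dendritic cells, macrophages and B cells. H2-Q10 encodes a class I molecule that the liver secretes. The heavy chains H2-K1 and H2-D1 and the class II chains H2-Aa, H2-Ab1 and H2-Eb1 are among the most polymorphic genes of the mouse. Inbred strains carry fixed combinations of MHC alleles, called H2 haplotypes.

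To place the state numbers, gene lists of known activity were read in the same way. The 12 hepatocyte markers, among them Alb and Apoa1, had a median share of 49.8% of their bins in state 1 and 14.4% in state 3, and none in state 13. The 12 developmental regulators, among them Hoxd10 and Sox1, had a median of 79.7% in state 13 and 0% in state 1. State 14 was the most widespread state over all autosomal protein-coding genes, and the share of bins outside it averaged 42.4% ± 2.55 (SD, n = 9 strains). PWK/PhJ stood lowest in that share with 36.4%, and the other 8 strains lay between 41.6% and 45.0%. Some values of H2-K1, H2-D1 and Tap1, where PWK/PhJ was also lowest in that share, are therefore given without it as well.

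The start sites and promoters of the class I genes and B2m are shown first because their state hardly differed between strains, while those of the class II chains carried other states. RefSeq on GRCm38.p6 gave start sites for 7 of the 10 genes. The bin with the start site was in state 3 in all 9 strains for H2-K1, H2-Q10, B2m and Tap1, and in 8 strains for H2-D1, where CAST/EiJ had state 1. Of 16457 genes with a listed start site, 33.5% were in state 3 in all 9 strains. The start site of H2-Aa was in state 14 in all 9 strains, as were 15.2% of the genes with a start site. The start site of H2-Eb1 was in state 6 in 6 strains, in state 2 in A/J and NZO/HlLtJ and in state 8 in NOD/ShiLtJ, while 57.3% of genes had the same state there in all 9 strains. The sequences below run 5′ to 3′ along the gene's strand, from 250 bases before the start site to 50 from it on. Capitals mark ATTGG on either strand, the letters of the Y box core of MHC promoters, the NF-kB site of class I enhancers (the 10 capitals before the Y box in H2-K1 and H2-D1), and 1 exact form of the core of the interferon-stimulated response element on either strand (the 10 capitals in B2m).
H2-K1: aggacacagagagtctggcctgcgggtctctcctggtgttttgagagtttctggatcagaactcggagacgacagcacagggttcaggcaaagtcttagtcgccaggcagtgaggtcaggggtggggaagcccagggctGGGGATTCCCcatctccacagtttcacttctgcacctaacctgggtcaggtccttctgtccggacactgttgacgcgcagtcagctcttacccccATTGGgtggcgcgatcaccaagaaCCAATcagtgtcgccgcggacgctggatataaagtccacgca
H2-D1: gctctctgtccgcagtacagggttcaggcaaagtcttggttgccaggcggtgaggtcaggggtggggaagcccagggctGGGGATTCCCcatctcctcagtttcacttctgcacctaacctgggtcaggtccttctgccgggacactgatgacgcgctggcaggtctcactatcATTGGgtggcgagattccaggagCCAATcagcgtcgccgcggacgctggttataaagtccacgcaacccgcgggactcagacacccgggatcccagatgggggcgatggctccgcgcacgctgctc
H2-Q10: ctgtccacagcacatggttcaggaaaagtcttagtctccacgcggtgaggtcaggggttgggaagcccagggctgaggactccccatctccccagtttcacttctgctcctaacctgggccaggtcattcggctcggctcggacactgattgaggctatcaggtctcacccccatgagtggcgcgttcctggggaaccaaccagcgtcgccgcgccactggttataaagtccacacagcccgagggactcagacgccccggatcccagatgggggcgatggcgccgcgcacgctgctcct
B2m: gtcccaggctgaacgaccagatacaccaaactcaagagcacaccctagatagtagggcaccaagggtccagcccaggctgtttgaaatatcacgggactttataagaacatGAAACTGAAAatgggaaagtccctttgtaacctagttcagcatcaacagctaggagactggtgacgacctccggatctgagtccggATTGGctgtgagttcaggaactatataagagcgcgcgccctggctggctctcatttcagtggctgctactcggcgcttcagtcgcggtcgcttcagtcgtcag
H2-Aa: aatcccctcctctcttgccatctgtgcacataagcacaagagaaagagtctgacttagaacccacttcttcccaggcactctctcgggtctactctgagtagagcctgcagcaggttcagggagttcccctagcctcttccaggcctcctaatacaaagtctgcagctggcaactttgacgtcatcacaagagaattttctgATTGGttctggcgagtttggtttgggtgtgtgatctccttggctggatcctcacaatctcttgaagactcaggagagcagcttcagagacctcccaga
H2-Eb1: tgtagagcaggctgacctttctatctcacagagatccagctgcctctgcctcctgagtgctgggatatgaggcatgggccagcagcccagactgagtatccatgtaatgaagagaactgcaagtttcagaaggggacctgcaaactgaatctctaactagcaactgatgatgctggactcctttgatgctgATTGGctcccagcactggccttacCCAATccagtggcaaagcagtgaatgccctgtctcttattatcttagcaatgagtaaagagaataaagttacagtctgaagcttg
These windows lie at chr17:34000298-34000597 on the minus strand for H2-K1, chr17:35262844-35263143 on the plus strand for H2-D1, chr17:35469839-35470138 on the plus strand for H2-Q10, chr2:122147437-122147736 on the plus strand for B2m, chr17:34287774-34288073 on the minus strand for H2-Aa and chr17:34305617-34305916 on the plus strand for H2-Eb1.

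The promoters of the 3 class I heavy chains are close copies of each other. H2-K1 and H2-D1 had 211 identical bases among 239 aligned (88.3%), H2-K1 and H2-Q10 had 196 of 231 (84.8%), and H2-D1 and H2-Q10 had 254 of 291 (87.3%). The NF-kB site stood in the windows of H2-K1 and H2-D1, and these letters were not in the window of H2-Q10. The site occurred in 0.104% of 27025 RefSeq promoters of the same length. Promoters on the chromosome of Cd74 were not among these 27025, and the percentages of all promoters refer to this set. ATTGG was found at 2 places in H2-K1, H2-D1 and H2-Eb1, at 1 place in B2m, H2-Aa and Tap1, and at none in H2-Q10, and 37.9% of all promoters held it. The form of the interferon-stimulated response element that was searched matched in the window of B2m and in none of the other 6, on the minus strand, and 3.49% of all promoters held it. Looser forms of this element were not searched. The letters TATAAA occurred in 14.2% of promoters. Their first base stood at -26 from the start site in H2-D1 and -28 in H2-Q10, at 36 in H2-K1, behind the start site used, and on the minus strand in B2m. TTCNNNGAA, a STAT site, was in none of the 7 windows and in 8.47% of all promoters. TGACG, the core of the X2 box, was in the windows of H2-K1, H2-D1, H2-Aa, B2m and Tap1 and in 21.0% of all promoters. These letters describe the C57BL/6J reference and not the other strains.

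**Figure D1:**
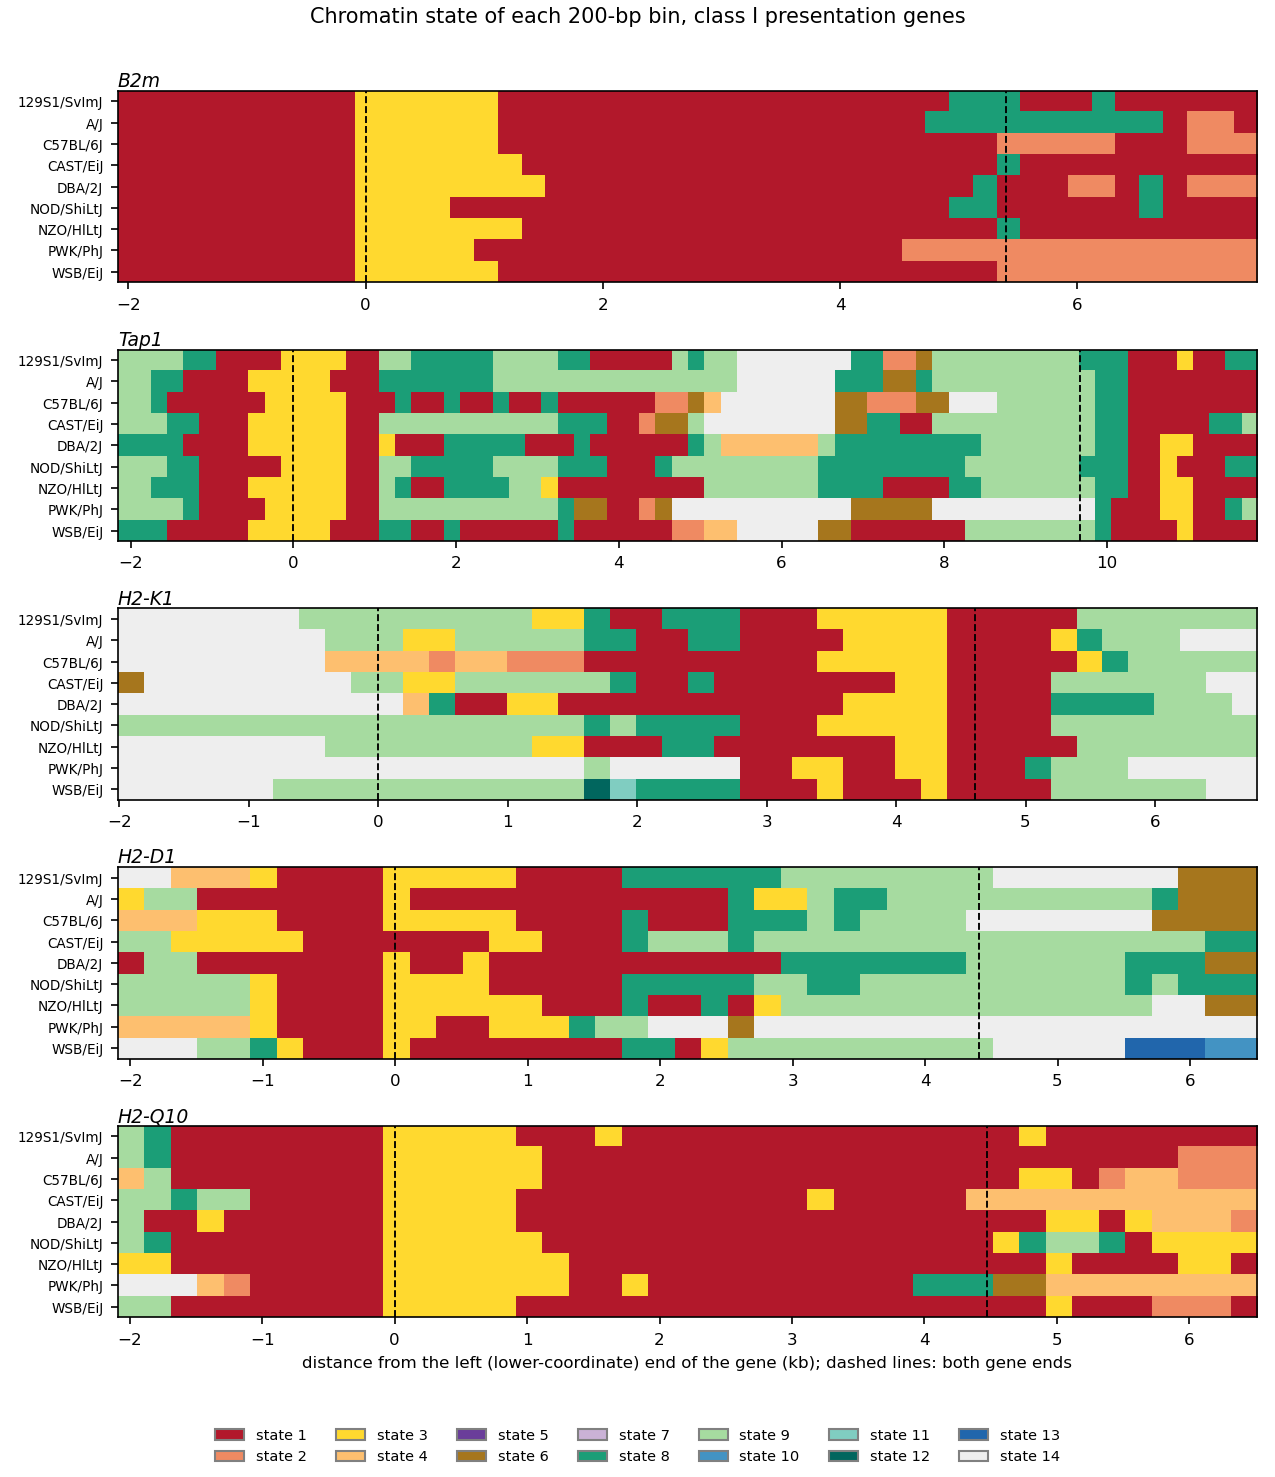
State of each 200-bp bin (colour) in each of the 9 strains (rows) over B2m, Tap1, H2-K1, H2-D1 and H2-Q10, by distance in kb from the gene's lower-coordinate end; dashed lines are the gene's ends, and H2-K1 is transcribed from the right. B2m and H2-Q10 are red (state 1) with a yellow block (state 3) at the start site in 9 strains, and PWK/PhJ has the longest stretches of grey (state 14) in H2-K1, H2-D1 and Tap1.

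The constant chain of class I, B2m (gene 12010, chr2:122147687-122153082), was outside state 14 over its whole span. No bin of its 48 was in state 14 in any strain. State 1 took 72.9% ± 10.2 of its bins, from 58.3% in PWK/PhJ over a median of 70.8% to 85.4% in NOD/ShiLtJ, and state 3 took 12.7% ± 2.43. The strains agreed at the left and in the body of the gene, differed in the length of the state 3 block behind the start site, and parted near the right end, where state 2 took 31.2% of the span in PWK/PhJ and 22.9% in WSB/EiJ, and state 8 took 20.8% in A/J. The whole span also lies inside the annotated extent of Patl2, so the 2 genes cannot be told apart here.

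Tap1 (gene 21354, chr17:34187556-34197225), a subunit of the peptide transporter, had 91.0% ± 9.50 of its 70 bins outside state 14. The share was lowest in PWK/PhJ at 70.0%, with a median of 91.4%, and reached 100% in DBA/2J, NOD/ShiLtJ and NZO/HlLtJ. State 1 took 30% ± 12.0, from 18.6% in PWK/PhJ to 52.9% in WSB/EiJ with a median of 22.9%. The states most frequent in the span thus differed between strains: state 1 in C57BL/6J, DBA/2J, NZO/HlLtJ and WSB/EiJ, state 9 in 129S1/SvImJ, A/J and CAST/EiJ, state 8 in NOD/ShiLtJ and state 14 in PWK/PhJ. In the flank past the gene's right end, chr17:34197401-34199400, 5 to 9 of 10 bins were in state 1 or 3 in the 9 strains. The span takes in 10 bins of Psmb9 and 7 of Psmb8, genes of the immunoproteasome that cuts the peptides.

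H2-K1 (gene 14972, chr17:33996012-34000619), the K heavy chain, was mostly in state 1 or 3 around its start and varied over the rest. The share outside state 14 was 36.4% in PWK/PhJ, had a median of 81.8% and reached 100% in NOD/ShiLtJ, with a mean of 76.8% ± 17.0. PWK/PhJ lay apart from the next strain, DBA/2J at 72.7%. In the right part around the start site, chr17:33998801-34001400, 11 to 13 of 13 bins were in state 1 or 3 in the 9 strains, PWK/PhJ included with 11. State 9 was frequent on both sides of that part and took 61.4% of the whole span in NOD/ShiLtJ, 31.8% at the median and 6.82% in DBA/2J. Over all genes NOD/ShiLtJ also had the most state 9, 8.14% against a mean of 4.59% over the strains.

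H2-D1 (gene 14964, chr17:35263094-35267497), the D heavy chain, had 87.6% ± 17.0 of its bins outside state 14. The lowest value was again that of PWK/PhJ, 48.8%, followed by 129S1/SvImJ at 79.1%, and A/J, CAST/EiJ, DBA/2J and NOD/ShiLtJ were at 100%. State 1 took 48.8% in DBA/2J and 44.2% in A/J, while the other 7 strains lay between 13.95% in PWK/PhJ and 27.9% in WSB/EiJ. The right end of the span held state 13 and state 10 in WSB/EiJ only among the 9 strains, at 6.98% and 4.65% of its bins.

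H2-Q10 (gene 15007, chr17:35470089-35474563), the secreted class I chain of the liver, was in state 1 over most of its span. State 1 took 64.3% ± 13.1 of its bins, from 39.5% in PWK/PhJ over a median of 67.4% to 79.1% in 129S1/SvImJ, and state 3 took 18.9% ± 5.13. State 1 was the most frequent state in each of the 9 strains, as it was for B2m. The strains parted less in the gene itself and in the left flank than in the flank past the gene's right end, chr17:35474601-35476600. There state 4 took 10 of 10 bins in CAST/EiJ and 8 of 10 in PWK/PhJ, while all 10 bins were in state 1 or 3 in 129S1/SvImJ and NZO/HlLtJ. Only PWK/PhJ had bins in state 14, 6.98% of the span, at the outer end of the left flank.

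H2-Q1 (gene 15006, chr17:35320525-35328142), a further class I heavy chain of the Q region, did not share this pattern. State 1 took 5.27% ± 4.68 of its 59 bins, from 0% in CAST/EiJ, NZO/HlLtJ and PWK/PhJ over a median of 5.08% to 13.6% in C57BL/6J. State 13 took 16.6% ± 16.8, and was at 0% in 129S1/SvImJ and C57BL/6J, 13.6% at the median and 47.5% in PWK/PhJ. At the left end, chr17:35320001-35321400, state 1 took 5 of 7 bins in 129S1/SvImJ and C57BL/6J, 4 in NOD/ShiLtJ and 3 in A/J, DBA/2J and WSB/EiJ, while state 12 took 6 of 7 in NZO/HlLtJ and PWK/PhJ. The strains without state 1 at this end were thus NZO/HlLtJ, PWK/PhJ and CAST/EiJ, where state 9 led with 4 bins. In the middle of the gene, chr17:35324201-35325400, state 6 took 4 to 6 of 6 bins in 129S1/SvImJ, A/J, C57BL/6J, DBA/2J and NZO/HlLtJ, and state 13 took 4 in CAST/EiJ. This and the other stretches within genes and their flanks were placed after the values had been seen, and they are described without a test.

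**Figure D2:**
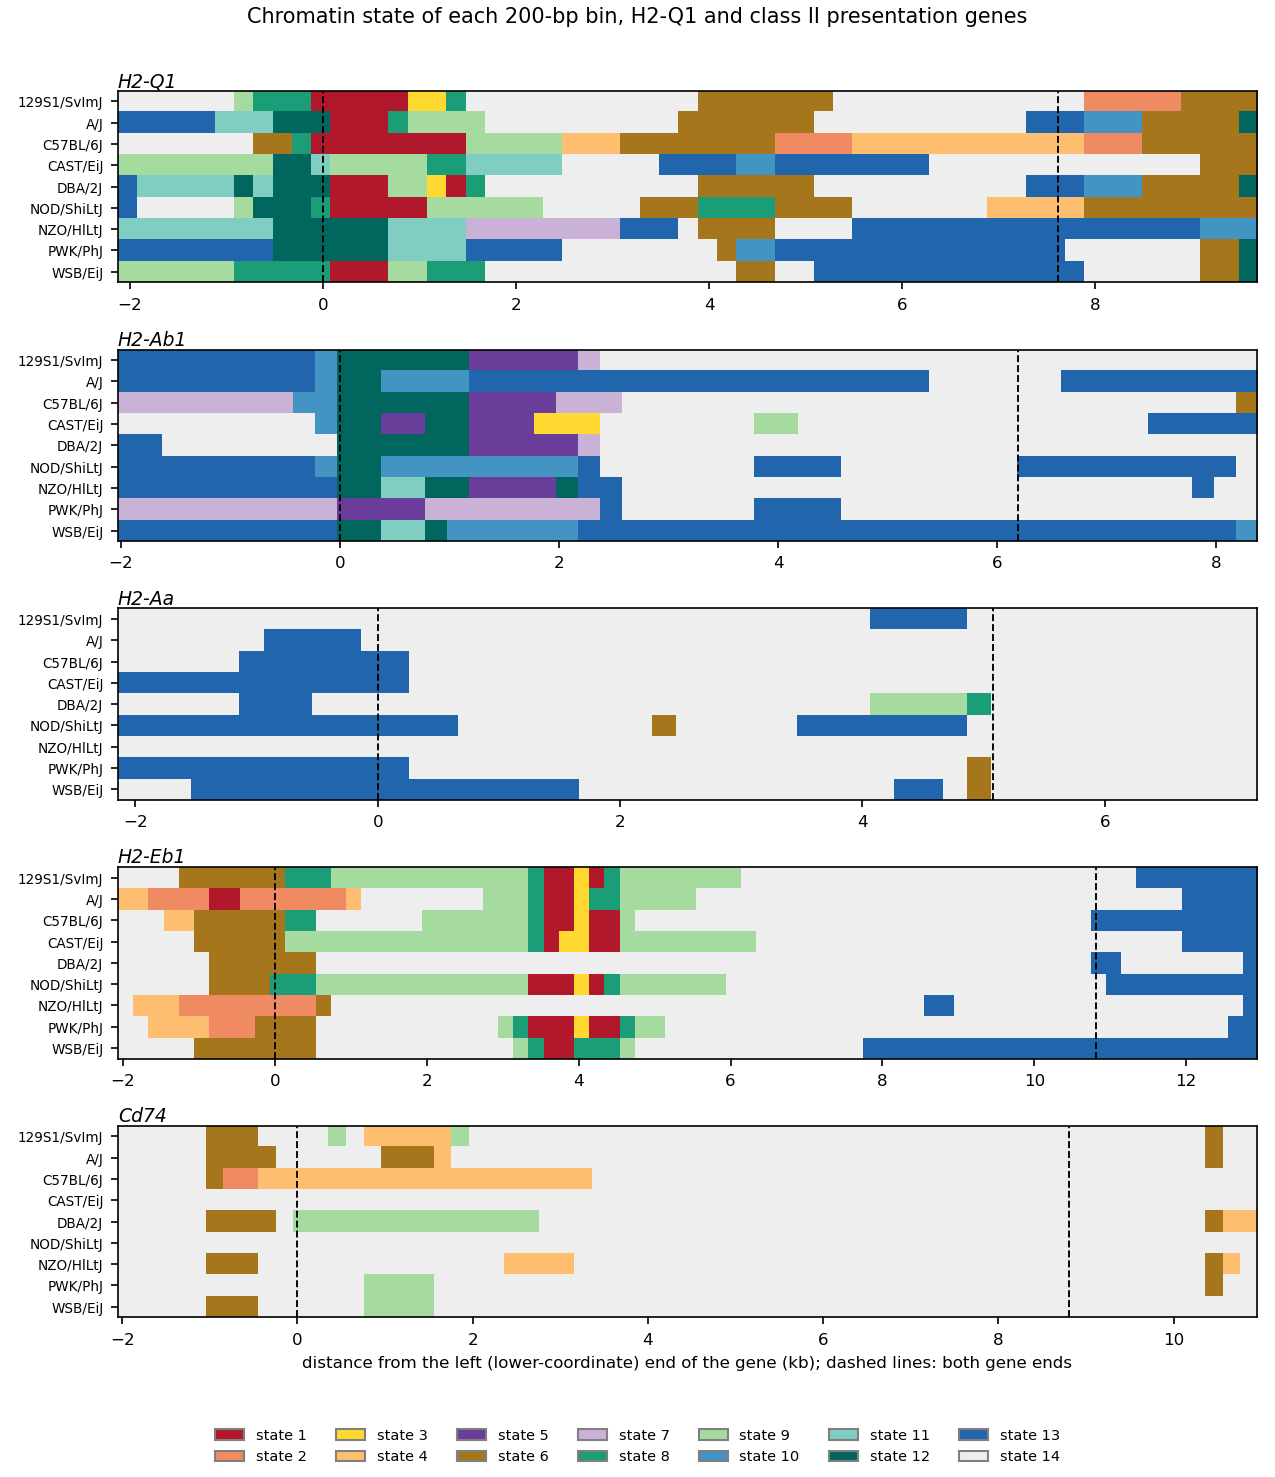
State of each 200-bp bin (colour) in each of the 9 strains (rows) over H2-Q1, H2-Ab1, H2-Aa, H2-Eb1 and Cd74, by distance in kb from the gene's lower-coordinate end; dashed lines are the gene's ends. Grey (state 14) and blue (state 13) fill most of the class II genes. H2-Eb1 has an internal block that holds bins of state 1 or 3 beside state 8 in 7 strains and is grey in DBA/2J and NZO/HlLtJ.

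Among the class II chains, H2-Aa (gene 14960, chr17:34282744-34287823), the A alpha chain, had no bin in state 1 or 3 in any strain. State 14 was its most frequent state in all 9 strains, and the share outside it was 21.0% ± 15.5. That share was 0% in NZO/HlLtJ, had a median of 17.0% and was highest in NOD/ShiLtJ at 46.8% and WSB/EiJ at 40.4%. Most of it was state 13, at 19.1% ± 15.3. DBA/2J differed in kind, with state 9 in 4 of the 8 bins of the right part next to the start site, chr17:34286201-34287800, where NOD/ShiLtJ had state 13 in 7.

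H2-Ab1 (gene 14961, chr17:34263227-34269418), the A beta chain, varied widely between strains. The share outside state 14 was 26.9% in DBA/2J, had a median of 46.2% and reached 88.5% in A/J and 100% in WSB/EiJ. State 13 accounted for these high values: it took 76.9% in WSB/EiJ, 75.0% in A/J and 46.2% in NOD/ShiLtJ, against 0% to 25% in the other 6 strains. Over all genes state 13 was also highest in WSB/EiJ and A/J, at 12.0% and 11.1%, with NOD/ShiLtJ at 10.1%. The left end of the gene, chr17:34263001-34265400, was outside state 14 in at least 11 of its 12 bins in the 9 strains, by different states. States 5 and 12 together took 9 to 11 bins in 129S1/SvImJ, C57BL/6J, CAST/EiJ, DBA/2J and NZO/HlLtJ, state 10 took 5 in A/J, 6 in WSB/EiJ and 10 in NOD/ShiLtJ, and state 7 took 8 in PWK/PhJ. States 5, 7 and 12 are rare, with mean shares of 0.117%, 0.0903% and 0.314% over all genes.

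H2-Eb1 (gene 14969, chr17:34305867-34316674), the E beta chain, had 43.4% ± 17.2 of its bins outside state 14, from 13.3% in DBA/2J over a median of 46.7% to 60% in 129S1/SvImJ. It was the only class II chain of the 4 class II genes with state 1, at 3.70% ± 2.38. Those bins lay mainly in 1 block inside the gene, chr17:34309001-34310400, which begins 3134 bases from the start site. There 2 to 6 of 7 bins were in state 1 or 3 in 7 strains, and all 7 were in state 14 in DBA/2J and NZO/HlLtJ. Around the start site, chr17:34304601-34306400, state 6 took 4 to 8 of 9 bins in 7 strains, and state 2 took 7 in A/J and 9 in NZO/HlLtJ. State 13 took 10.8% ± 9.90 and was highest in WSB/EiJ at 34.7%, against 14.7% in the next strain, C57BL/6J.

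Cd74 (gene 16149), the invariant chain, lies outside the MHC on another chromosome. It had 14.4% ± 12.1 of its 65 bins outside state 14, and no bin in states 1, 3 or 13 in any strain. The share was 0% in CAST/EiJ and NOD/ShiLtJ, 13.8% at the median, 32.3% in DBA/2J and 33.8% in C57BL/6J. The bins outside state 14 differed in kind between the 2 highest strains. In the left part of the gene, state 4 took 16 of 19 bins in C57BL/6J, and state 9 took 14 of 19 in DBA/2J. The span takes in 6 bins of the neighbour Tcof1.

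**Figure D3:**
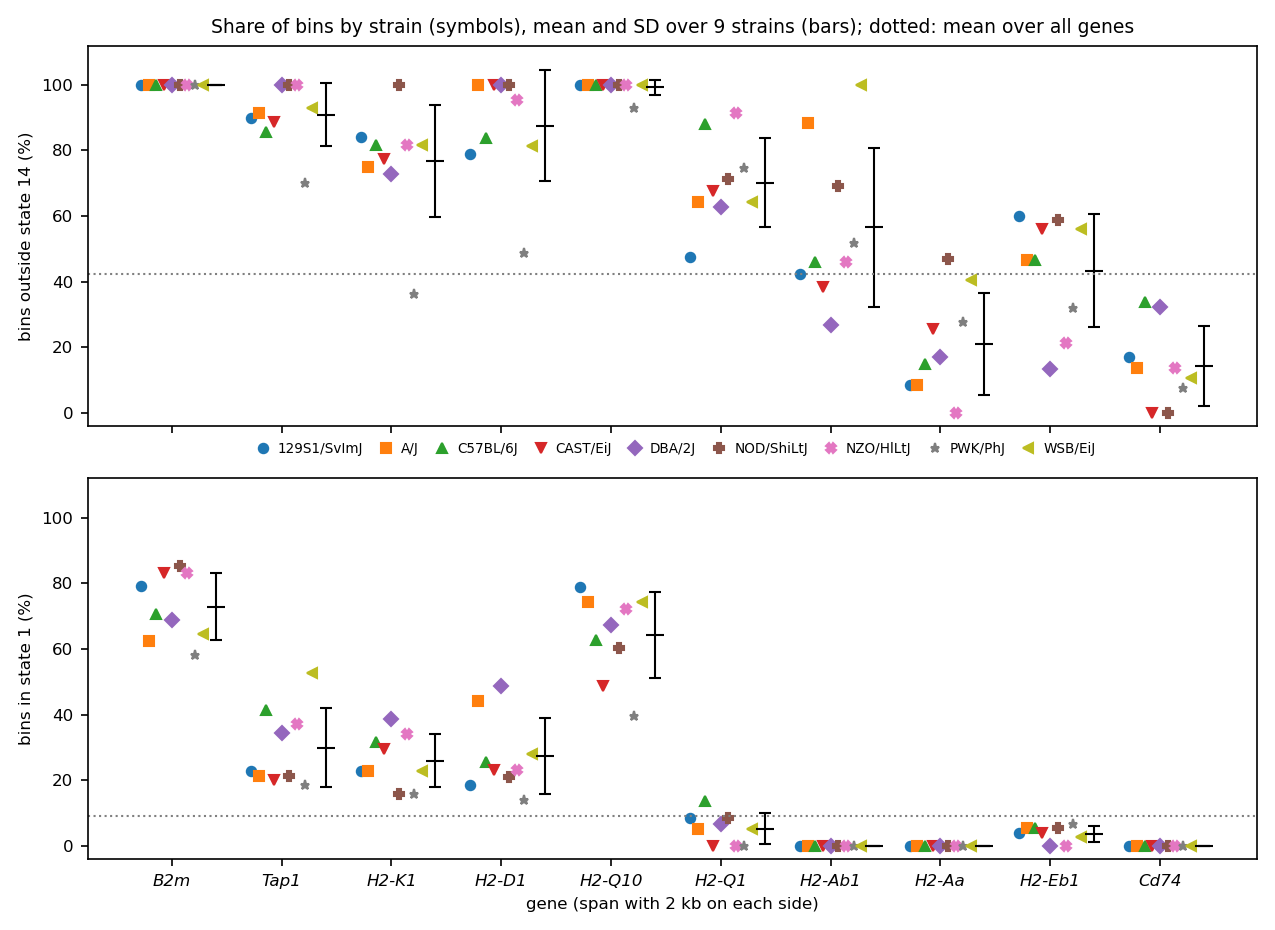
Percentage of each gene's bins outside state 14 (upper panel) and in state 1 (lower panel) in each of 9 strains (symbols), with mean and SD over strains (bars) and the mean over all genes (dotted line). B2m, Tap1, H2-K1, H2-D1 and H2-Q10 lie above the dotted line of state 1 in 9 of 9 strains, and PWK/PhJ is the lowest symbol for H2-K1, H2-D1, H2-Q10 and Tap1 in the upper panel.

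Each gene's share was compared with the mean over all autosomal protein-coding genes of the same strain, by an exact permutation of signs over strains, two-sided, whose smallest p is 0.00391, and with Benjamini-Hochberg adjustment over all 20560 genes. State 1 was higher for H2-K1, H2-D1, H2-Q10, B2m and Tap1, 5 of the 10 genes, against 26.2% of all genes. The excess over the mean of all genes, 9.17%, ran from 16.8 percentage points for H2-K1 to 63.7 for B2m, in 9 of 9 strains each (exact test, adjusted p = 0.00464). The other 5 genes were lower in state 1, as were 65.8% of all genes, and 3 of them, H2-Aa, H2-Ab1 and Cd74, had no bin in it in the 9 strains, as had 31.7% of all genes, which places a gene below the mean by construction. Against the median over genes in place of the mean, these 3 were the members lower in state 1, and H2-Q1 and H2-Eb1 lay 2.53 and 0.958 points above it. With no padding the call of H2-Q1 was lost as well (-0.987 points, exact test, adjusted p = 0.672). The excess of H2-K1 was 29.5 points with no padding and 7.26 with 5 kb on each side, and that of Tap1 was 12.1 and 13.02. State 3 gave the same 5 genes as higher, by 6.46 points for Tap1 to 16.3 for H2-Q10 (exact test, adjusted p = 0.00477), against 23.6% of all genes, and the other 5 as lower, against 66.3%. H2-Aa and Cd74 had no bin in state 3 in the 9 strains, as had 39.4% of all genes. Against the median over genes these 2 were the members lower in state 3. The excess in state 3 was 16.9 points for H2-K1 and 18.8 for B2m with no padding, and 4.64 and 5.71 with 5 kb.

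The share outside state 14 was higher for 6 of the 10 genes, against 35.1% of all genes. These were the same 5 and H2-Q1, which exceeded the mean of all genes by 27.8 points ± 14.4 (SD, n = 9; exact test, adjusted p = 0.0057). The excess of the other 5 ran from 34.3 points for H2-K1 to 57.6 for B2m. H2-Aa and Cd74 were lower, with differences of -21.4 and -28.1 points (exact test, adjusted p = 0.0104 and 0.0057), as were 48.2% of all genes. H2-Ab1 and H2-Eb1 did not pass, with differences of 14.2 points ± 23.8 and 0.965 points ± 16.0 (SD, n = 9; exact test, adjusted p = 0.133 and 0.871). Without PWK/PhJ the excess was 38.6 points for H2-K1, 49.2 for H2-D1 and 50.4 for Tap1, and the counts of 6 higher and 2 lower genes were the same. With 5 kb on each side H2-Ab1 was called higher too, by 17.8 points (exact test, adjusted p = 0.0246), which gave 7 members, and the excess of H2-K1 was 13.8 points. H2-Ab1 was also higher against the median over genes, by 20.6 points (exact test, adjusted p = 0.0248).

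State 13 was lower for 6 of the 10 genes, H2-K1, H2-D1, H2-Q10, Cd74, B2m and Tap1 (exact test, adjusted p = 0.00496), against 70.0% of all genes, and 5 of these 6 had no bin in it in the 9 strains, as had 53.4% of all genes, which again places a gene below the mean by construction. Against the median over genes, which is 0, no member was lower. None was called higher, against 17.7% of all genes. H2-Ab1, H2-Aa, H2-Q1 and H2-Eb1 had means of 29.3%, 19.1%, 16.6% and 10.8% against 10.1% over all genes, with SDs of 29.8, 15.3, 16.8 and 9.90. The exact test gave these 4 genes adjusted p of 0.0916, 0.125, 0.318 and 0.92, and unadjusted p of 0.082, 0.113, 0.297 and 0.91. Against the median, H2-Ab1, H2-Aa and H2-Eb1 were called higher, by 29.3, 19.1 and 10.8 points (exact test, adjusted p = 0.0309, 0.0309 and 0.0182). With 5 kb on each side in place of 2 kb, 3 genes were called higher against the mean: H2-Ab1 by 29.1 points, H2-Eb1 by 15.04 and H2-Q1 by 11.9 (exact test, adjusted p = 0.00505, 0.00959 and 0.0319). The lower call of H2-Q1 in state 1 was lost when any of 8 of the 9 strains was left out, and so was that of H2-Ab1 in state 3, which was also lost with 5 kb (exact test, adjusted p = 0.0775).

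**Figure D4:**
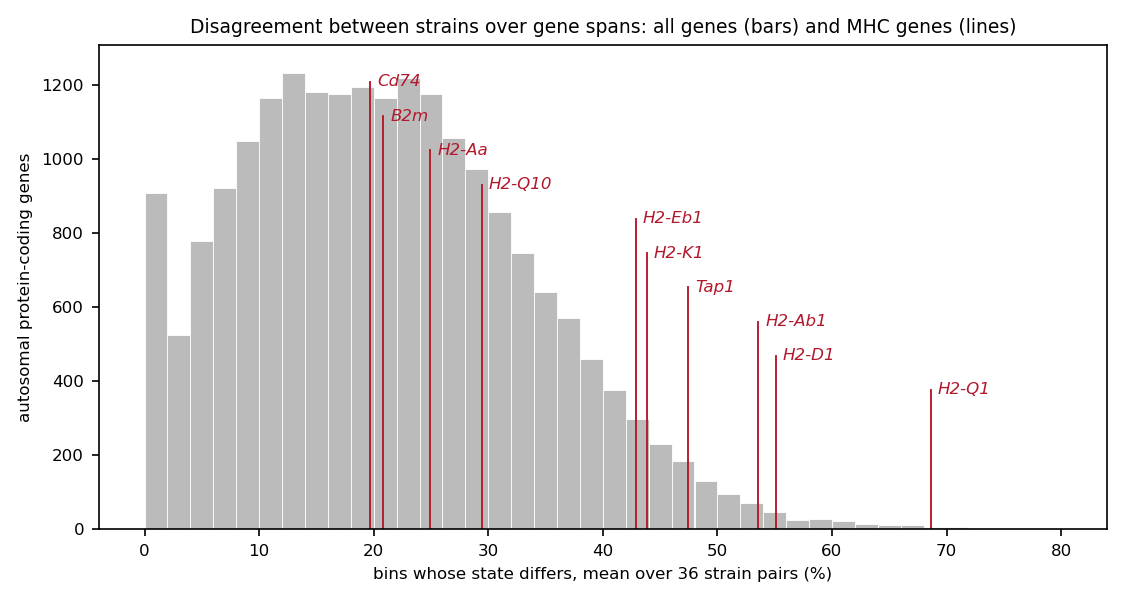
Number of autosomal protein-coding genes (bars) by the percentage of bins whose state differs between a pair of strains, averaged over 36 pairs, with red lines at the values of the 10 MHC genes. H2-Q1 stands at 68.6% in the far right tail, and Cd74 and B2m stand near the middle of the distribution.

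The genes differed widely in how far the strains agreed on them. The percentage of bins in different states, averaged over the 36 strain pairs, was 68.6% for H2-Q1, 55.1% for H2-D1, 53.6% for H2-Ab1, 47.5% for Tap1, 43.8% for H2-K1 and 42.9% for H2-Eb1. The median over all genes was 20.2% and the 90th percentile 37.8%, so 6 of the 10 genes lay above the level that 10% of genes exceed. H2-Q10 at 29.5%, H2-Aa at 24.9%, B2m at 20.8% and Cd74 at 19.7% lay in the body of the distribution, at percentiles 75.4, 63.7, 51.7 and 48.4. The place of 2 of them depended on the flanks: H2-Q10 had 10.7% (percentile 26.4) with no padding and 38.7% (92.7) with 5 kb, and B2m had 14.3% (36.2) and 32.2% (82.5). Among genes of 40 to 80 bins, a range chosen after the data were seen, the median was 25.2% and the 90th percentile 42.6%, so H2-Aa lay below that median and H2-Eb1 just above that 90th percentile. H2-Q1 was at percentile 99.9, and none of its 59 bins had the same state in the 9 strains. The same was true of the 52 bins of H2-Ab1, while 61.5% of the bins of Cd74, 60.4% of B2m and 46.5% of H2-Q10 had 1 state in all 9, against a median of 50.5% over all genes. No test was made of these percentages, because pairs share strains.

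By construction, bins in state 14 in all 9 strains lower this percentage. When only bins outside state 14 in at least 1 strain were counted, the order changed at its ends. Cd74 moved from percentile 48.4 to 96.9, B2m from 51.7 to 5.43, H2-Q10 from 75.4 to 26.7 and H2-K1 from 95.6 to 87.4. H2-Q1, H2-D1, H2-Ab1, Tap1 and H2-Eb1 lay between 93.5 and 99.9 in that count. With states 13 and 14 taken as 1 state, 4 of the 10 genes lay above the 90th percentile, and H2-Ab1 had 25.1% and percentile 74.8. H2-Aa then had 3.55% and percentile 27.1, down from 24.9% and 63.7. Without PWK/PhJ the percentages of H2-D1 and H2-K1 were 49.4% and 39.4%, at percentiles 98.5 and 93.2.

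The kinds of difference also varied. Where 2 strains differed, state 14 was on one side in 97.2% of the cases at H2-Aa, 85.5% at Cd74 and 78.6% at H2-Eb1, against 70.6% over the bins of all genes. It was on one side in 59.2% at H2-Ab1, 50.5% at H2-Q1, 42.9% at H2-K1, 35.6% at H2-D1, 22.6% at Tap1, 5.26% at H2-Q10 and none at B2m. At those genes a smaller part of the differences thus had state 14 on one side than over all genes. This part depends on how much state 14 a gene holds. B2m had no bin in it, which fixes its value, and H2-Q10 had such bins in PWK/PhJ only. In 65 of the 546 bins (11.9%) 8 strains shared a state and 1 strain had another. The odd strain was WSB/EiJ in 23 of these bins, PWK/PhJ in 17 and NOD/ShiLtJ in 10. Of the 23 of WSB/EiJ, 13 lay in H2-Eb1, within 1 unbroken stretch of state 13. The same count over the bins of all genes is not given, so these numbers cannot be read as particular to the 10 genes.

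**Figure D5:**
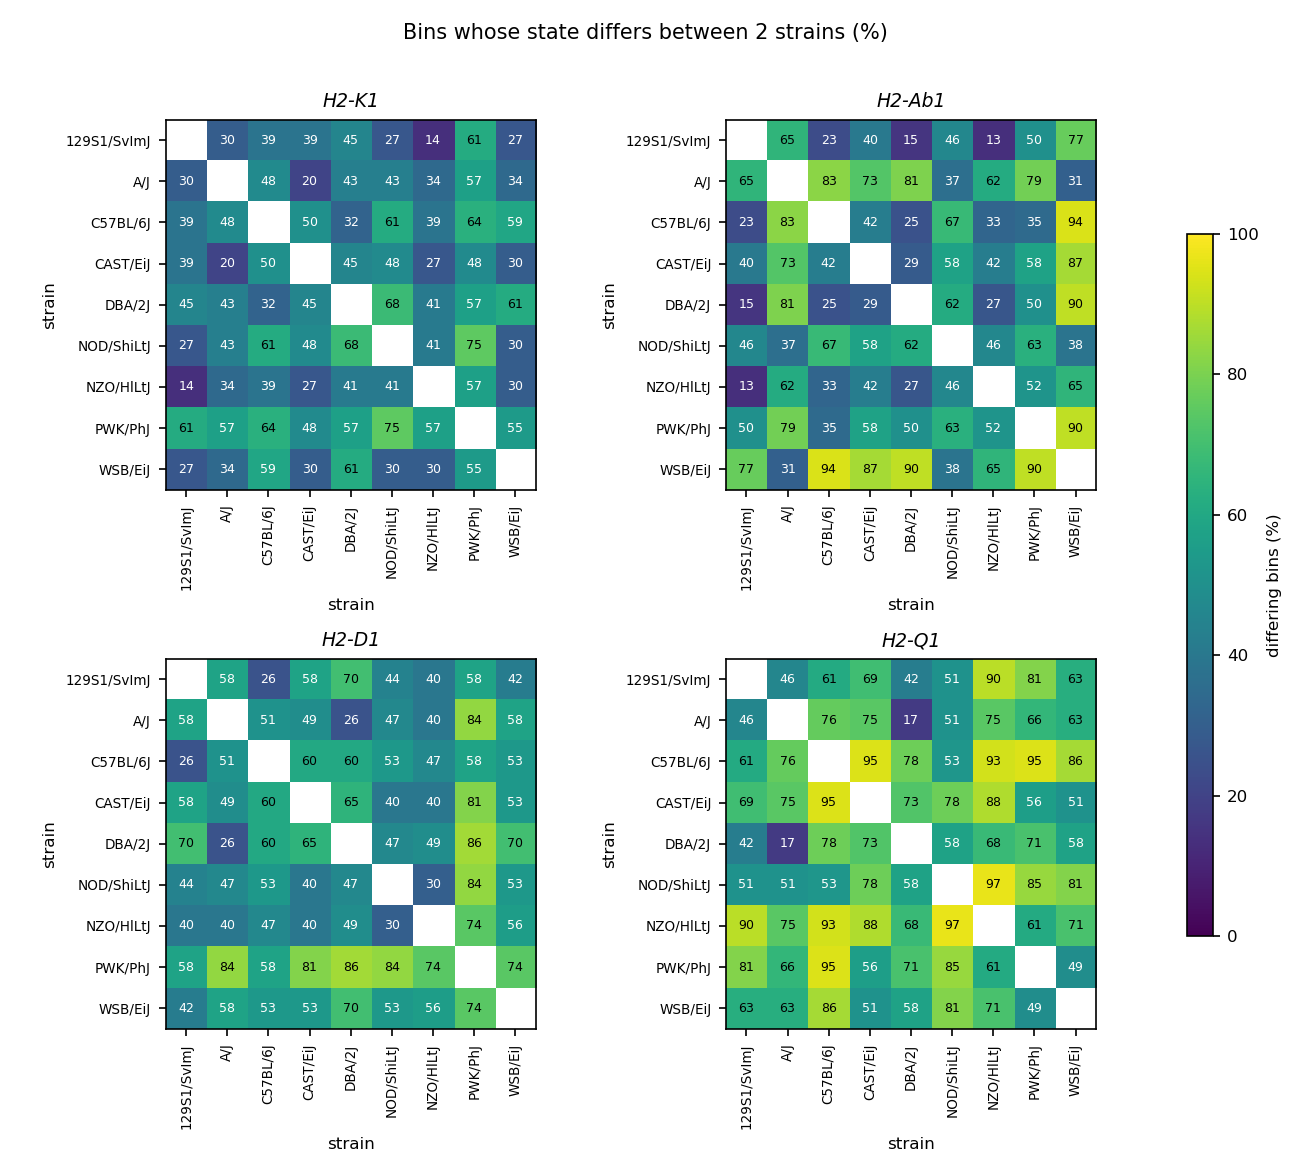
Percentage of bins in different states for each pair of the 9 strains (colour and number in each cell) at H2-K1, H2-Ab1, H2-D1 and H2-Q1. At H2-D1 the rows of PWK/PhJ are lightest, and at H2-Q1 the pair of A/J and DBA/2J is the darkest cell with 16.9%.

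The closest and farthest pairs differed from gene to gene. At H2-Q1 the pair of A/J and DBA/2J had 16.9% of bins in different states, and the pair of NOD/ShiLtJ and NZO/HlLtJ had 96.6%. At H2-D1 the lowest value, 25.6%, was shared by 2 pairs, A/J with DBA/2J and 129S1/SvImJ with C57BL/6J, and the highest was 86.0% for DBA/2J with PWK/PhJ. At H2-Ab1 129S1/SvImJ and NZO/HlLtJ differed in 13.5% of bins, and C57BL/6J and WSB/EiJ in 94.2%. At H2-K1 129S1/SvImJ and NZO/HlLtJ were again closest, at 13.6%, and NOD/ShiLtJ and PWK/PhJ farthest, at 75.0%.

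Pairs were then set beside the H2 haplotypes that are generally listed for 5 of the strains. C57BL/6J and 129S1/SvImJ carry b alleles throughout, DBA/2J carries d, A/J carries k alleles at K and class II and d at D, and NOD/ShiLtJ carries d at K, an H2-Ab1 allele of its own and b at D. At H2-D1 the 4 pairs with the same D allele differed in 37.2% of bins on average (25.6% to 53.5%) and the 6 pairs with different alleles in 55.4% (46.5% to 69.8%), so the ranges overlapped. At H2-Q1, placed with the D side of the complex, the averages were 45.3% and 58.5%, and at H2-Q10 they were 25% and 21.7%. At H2-K1 the order was the opposite, with 53.4% over 2 pairs of the same allele and 41.2% over 8 others. The pair of C57BL/6J and 129S1/SvImJ, the only one of the 10 with the same H2-Ab1 allele, differed in 23.1% of bins at H2-Ab1. The other 9 pairs averaged 53.4% (15.4% to 82.7%), a range that takes in 23.1%. Its lowest value was that of 129S1/SvImJ and DBA/2J, which carry different alleles. With the same grouping at H2-Eb1, C57BL/6J and 129S1/SvImJ differed in 26.7% of bins, and the other 9 pairs averaged 39.6% (10.7% to 54.7%). Over all genes these 10 pairs differed in 16.9% to 22.1% of bins, and C57BL/6J and 129S1/SvImJ were the closest of them. Few pairs share an allele and pairs share strains, so these values are a description, and whether the states follow the haplotype was not tested.

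How reads from close copies were placed is not given in the sources used here. The 3 class I promoters shown above are 84.8% to 88.3% identical over their aligned bases, and no sequence of H2-Q1 was compared. Whether the states of H2-K1, H2-D1, H2-Q10 and H2-Q1 hold reads of one another was not tested, and they are uncertain in this respect. The strains other than C57BL/6J also differ from the reference in sequence, and the part that reads lost at differing sequence may have in these values was not tested.

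Other genes of the pathway were read from lists written out from general knowledge. Of 14 further genes of class I presentation, 11 were higher outside state 14 and in state 1, against 35.1% and 26.2% of all genes, and 2 were lower in each, against 48.2% and 65.8%. Their disagreement had a median of 27.6% and was highest for Tapbp at 42.3%, the chaperone tapasin that holds the heavy chain at the transporter, Psme1 at 41.6%, a proteasome activator, and Psmb9 at 41.4%. It was lowest for Hspa5 at 15.1%, a general chaperone of the endoplasmic reticulum. Of these 14 genes, 4 lay above the 90th percentile of all genes.

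Of 12 further genes of class II presentation, 3 were higher in state 1 and 8 lower, shares near the 26.2% and 65.8% of all genes. In state 13, 6 were higher and 6 lower, against 17.7% and 70.0% of all genes. The 6 higher in state 13 were H2-Oa, H2-Ob, H2-DMa, H2-DMb1, H2-DMb2 and H2-Eb2, chains of class II or class II-like molecules, from 20.4% at H2-DMa to 79.0% at H2-Eb2. H2-Aa, H2-Ab1 and H2-Eb1 had means of 10.8% to 29.3% and did not pass that test. Disagreement in this list was highest for H2-Ob at 47.2%, Ifi30, a lysosomal thiol reductase, at 46.7%, and H2-DMb2 at 42.03%. It was lowest for Ctss, the protease that degrades the invariant chain, at 5.03%, with 3.46% ± 1.54 of its bins outside state 14.

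Of 15 other heavy chains of the class I family, 10 were higher in state 1 and 3 lower, against 26.2% and 65.8% of all genes. H2-Q2, a neighbour of H2-Q1, came closest to it in disagreement with 58.0%, and had 24.03% ± 18.9 of its bins in state 13. H2-T22 followed with 52.1% and Hfe, the iron regulator, with 43.1%, and H2-M2 had all its bins in state 14 in all 9 strains. Of 11 regulators of interferon signalling, which raises class I and class II expression, 7 were higher in state 1 and 1 lower, against the same 26.2% and 65.8%. Irf7 had the highest disagreement with 50.9%, then Stat2 with 45.1% and Irf9 with 41.99%, and the kinase gene Jak2 the lowest with 10.9%.

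Class II genes and Cd74 are known from immune cells, so markers of such cells were read in the same maps. Of 11 Kupffer cell and myeloid markers, 10 were measured, since Vsig4 lies on the X chromosome. Of these, 1 was higher in state 1, Cd68, and 9 were lower, where 26.2% of all genes were higher and 65.8% lower, and their median in state 1 was 0%, as for H2-Aa, H2-Ab1 and Cd74. Their mean share outside state 14 ranged from 23.2% to 46.6% over the strains. Marco and Adgre1 had most, at 63.0% ± 17.6 and 59.0% ± 14.9 after Cd68 at 94.4% ± 9.43, and both were mainly in state 13, while Lyz2 had 4.44% ± 4.30. Of 10 lymphocyte markers, 1 was higher in state 1, Cd4, and 8 were lower, and the mean share outside state 14 was 13.6% to 37.9% over the strains. Ms4a1 and Cd8a were in state 14 throughout. Of 8 endothelial markers, 1 was higher in state 1, Lyve1, and 6 were lower, with a mean share outside state 14 of 36.7% to 51.9%. The lower calls of the lymphocyte and endothelial lists, 8 of 10 and 6 of 8, lie near the 65.8% of all genes. All 12 hepatocyte markers were higher outside state 14 and in states 1 and 3, against 35.1%, 26.2% and 23.6% of all genes. The part that cells other than hepatocytes may have in the states of the 10 genes was not tested.

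The 2 genes most like each member in state composition were found by the total variation distance between the 14 state shares, in percentage points, averaged over the 9 strains. B2m was nearest to Slc10a1, the bile acid transporter of hepatocytes, at 7.72 points, and then to Slc25a34 at 10.3. H2-Q10 was nearest to Mcl1, a survival factor, and Angptl8, a secreted protein of the liver, both at 14.7. Cd74 was nearest to Tyrobp, an adaptor protein of myeloid cells, at 9.96 points and to Upk1a at 9.996. H2-Aa was nearest to Klri1, a receptor of natural killer cells, at 8.48 points and to Poteg at 9.28. H2-K1 had Ring1 at 17.4 points and Zdhhc4 at 18.5, H2-D1 had Zkscan14 at 19.2 and Ufc1 at 20.6, and Tap1 had Ier3ip1 at 19.95 and Rpl14 at 20.2. H2-Eb1 had Pip5kl1 at 23.1 points and Pgap3 at 23.2, H2-Ab1 had Olfr78 at 27.7 and Nfatc4 at 29.3, and H2-Q1 had Kcnv2 at 39.1 and Nxnl1 at 40.6. H2-Q1 thus had the most distant nearest gene of the 10. Among themselves, H2-K1 and H2-D1 were 25.96 points apart, H2-D1 and Tap1 27.9, B2m and H2-Q10 21.2, and H2-Aa and Cd74 26.6. Of all genes, 1.16% were nearer to H2-K1 than H2-D1 was, 0.314% nearer to H2-D1 than H2-K1, and 1.03% nearer to Tap1 than H2-D1. For B2m and H2-Q10, 1.23% were nearer to B2m than H2-Q10 was, and 0.742% nearer to H2-Q10 than B2m. H2-Aa and Cd74 were not close by this measure, with 38.3% of genes nearer to H2-Aa and 40.5% nearer to Cd74.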

How the data were processed

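Per the labels, chromatin was immunoprecipitated from hepatocytes of 9 strains. The authors deposited 1 segmentation per strain, in which column 4 is a state number, a category and not a count, signal or score. The submitters' processing notes name build mm10, FastQC 0.11.5 and MACS 1.4.2, with no role given, and the segmentation tool, the aligner and the depth are not given in the sources used here. Gene spans came from a RefSeq table of GRCm38.p6, and genes starting in the first 3 Mb of a chromosome were dropped. Segments were read as 200-bp bins, and each gene took the bins touching its span with 2 kb on each side. Shares were tested gene by gene with an exact two-sided sign-flip test over 9 strains (512 sign patterns), Benjamini-Hochberg adjusted over all genes, with a threshold of 0.05. Strains share ancestry, so p-values assume more independence than they have. Samples were grouped by the strain in their labels, and every sample of a strain enters through that strain's segmentation. The members and lists were chosen with earlier results of these data known. The text names all 10 members, the 3 genes of highest and the 1 of lowest disagreement in each pathway list, the 2 genes most like each member, and up to 3 markers with most and fewest bins outside state 14, and genes named for a count of 5 or fewer or as the called members of a list were picked after their values were seen. Alternatives covered padding, background, X, short segments, left-out strains and how states were matched. The code was tested on simulated data. The tools were Python 3.11.15 with scipy 1.17.1, numpy 2.4.6, matplotlib 3.10.9 and pandas 2.3.3.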

Additional observations from a re-analysis of the deposited data

Results flagged for a closer look

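In 10 of 39 sets of 9 strain values, 1 strain stood apart from the rest by a gap above the limit of Dixon's test. About 1.95 sets would pass if the sets were independent and their values normally distributed. These sets share strains and bins, and shares are bounded, so the 10 sets cannot be read as an excess over that number. A set in which all other strains have 1 value passes by construction, as for H2-D1 in state 13, H2-Q10 outside state 14 and H2-Ab1 in state 3. PWK/PhJ was the strain apart in 5 of the 10 sets. Its share outside state 14 was 36.4% at H2-K1 (next strain 72.7%), 48.8% at H2-D1 (79.1%), 93.0% at H2-Q10 (100%) and 70.0% at Tap1 (85.7%), and its mean disagreement with the other strains at H2-D1 was 75.0% (59.0%). Over all genes PWK/PhJ was also lowest outside state 14, at 36.4%. WSB/EiJ stood apart in state 13, with 6.98% at H2-D1, where the other strains had 0%, and 34.7% at H2-Eb1 (14.7%). Over all genes WSB/EiJ was also highest in state 13, at 12.0%, followed by A/J at 11.1%. CAST/EiJ stood apart in state 3, with 5.77% at H2-Ab1, where the others had 0%, and 2.67% at H2-Eb1 (1.33%), and 129S1/SvImJ in state 3 at H2-Q1 with 3.39% (1.69%). Each of these 3 values of state 3 is a few bins.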

How the results depend on the processing

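No paired analysis was possible because each strain has 1 segmentation, and the replicate numbers of the libraries belong to no column. Of 560 differences between a member and all genes under the alternatives, 511 kept their direction and their side of the threshold. H2-Eb1 lay near the mean of all genes and changed sign: outside state 14 it was -5.29 points with no padding, -1.38 with genes of the X included, and -0.837 to 4.62 with a strain left out, and in state 13 it was -5.73, -2.53 and -2.05 to 1.57. Members called higher in state 13 numbered 3 with 5 kb padding and 0 to 1 with a strain left out, the 1 being H2-Ab1 without C57BL/6J. Against the median over genes, state 1 gave 9506 genes higher and 3 members lower, with H2-Q1 at 2.53 points and H2-Eb1 at 0.958. State 3 then gave 9647 genes higher, 9063 lower and 2 members lower, with H2-Q1 at 0.106, H2-Ab1 at 0.182 and H2-Eb1 at 0.578. State 13 then gave 3 members higher, and 0 members and 0 genes lower, since its median over genes is 0, with H2-K1, H2-Q10, Cd74, B2m and Tap1 at 0 and H2-D1 at 0.775. Of the 10 genes, 6 lay above the 90th percentile of disagreement under every alternative run except states 13 and 14 merged, which gave 4. They were not the same genes throughout. H2-K1 was at percentile 87.8 with 5 kb padding, and at 87.4 when only bins outside state 14 in at least 1 strain were counted. The range of genes of 40 to 80 bins was chosen after the data were seen. The depth is unknown and limits every share.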
